A study of Drosophila pseudoobscura with 4 samples.

Results

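The microRNA dps-mir-8 took the most reads of the 231 microRNAs counted in *D. pseudoobscura*, and it was selected on that measure, its reads over all libraries. It is 1 microRNA of the 231, found as the row of that name in each of the 4 count tables. The samples were 2 libraries from adult males and 2 from adult unfertilized females, all of 1 stock raised at 18 °C under 12 h of daily light and aged 7 days. Their small RNAs went through 2 MiSeq runs, a male with a female library in each, and libraries numbered 1 and 2 in the labels were taken as runs 1 and 2. The labels name no tissue. The paper calls the replicates of each sex biological, but neither it nor the labels say whether they came from separate cultures. How far the spread between replicates is technical is therefore not known.

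A microRNA is a short RNA cut from a hairpin precursor, and it represses the messenger RNAs that pair with its seed, a stretch near its 5′ end. In flies mir-8 is the relative of the vertebrate mir-200 family. In *D. melanogaster* it is known for promoting body growth from the fat body, where it lowers the GATA cofactor u-shaped and so relieves insulin signalling, and for repressing atrophin in the nervous system and parts of the Wingless pathway. The counts used here were made on the whole precursor, so both arms of the hairpin are summed. Its precursor is listed on chromosome 3, the Muller element C, from 14955760 to 14955846 in the assembly UCI_Dpse_MV25, a span of 87 bases. It lies within the span of the long noncoding RNA gene LOC26532895, from 14953709 to 14960714, for which exons and introns were not distinguished here. The nearest protein-coding genes were LOC6903889, at a distance of 2967 bases on one side, and IntS8, at 16717 bases on the other.

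Depth differed more between the runs than between the sexes, with 5697 reads in the male and 7111 in the female library of run 1, and 67076 and 42754 in those of run 2. Of the 231 microRNAs, 47 and 94 reached 3 reads in the male libraries, and 48 and 77 did in the female ones. Copies made by PCR were not marked by molecular identifiers, so the intervals below cover counting error only. The ovary list (dps-mir-989, dps-mir-994, dps-mir-318) summed to 0.0351% and 0.00895% of reads in the male libraries and to 4.72% and 8.12% in the female ones, although dps-mir-989 never exceeded 2 reads. Per library, the muscle marker dps-mir-133 took 0.0422% to 0.270% of reads, and the nervous system marker dps-mir-124 took 0.0141% to 0.0527%. Several of these shares rest on few reads. In the male and female libraries of run 1, dps-mir-133 had 6 and 3 reads and dps-mir-124 had 3 and 1. In run 2 dps-mir-124 had 16 and 10. The muscle marker dps-mir-1 was not analysed here.

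In the male libraries dps-mir-8 had 1723 of 5697 reads (run 1) and 20946 of 67076 (run 2), and in the female libraries 2166 of 7111 and 10866 of 42754. Its share of the reads was therefore 30.2% (exact Clopper-Pearson 95% interval 29.1 to 31.5) and 31.2% (30.9 to 31.6) in males, and 30.5% (29.4 to 31.5) and 25.4% (25.0 to 25.8) in females. The intervals of both male libraries and of the first female library overlapped, while the second female library lay below all of them. In every library dps-mir-8 ranked first. The place after it went to dps-mir-276a in both libraries of run 1 and to dps-bantam in both of run 2. The reads of dps-mir-8 were 1.88 and 2.18 times those of the next microRNA in males, and 1.74 and 1.80 times in females. Divided by the length of the precursor, dps-mir-8 also ranked first in each library, with 19.8 and 241 reads per base in males and 24.9 and 125 in females. The next microRNA had 9.26 and 119 reads per base in males and 12.6 and 74.3 in females. These ranks are what the microRNA was chosen for and are given without a test.

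**Figure D1:**
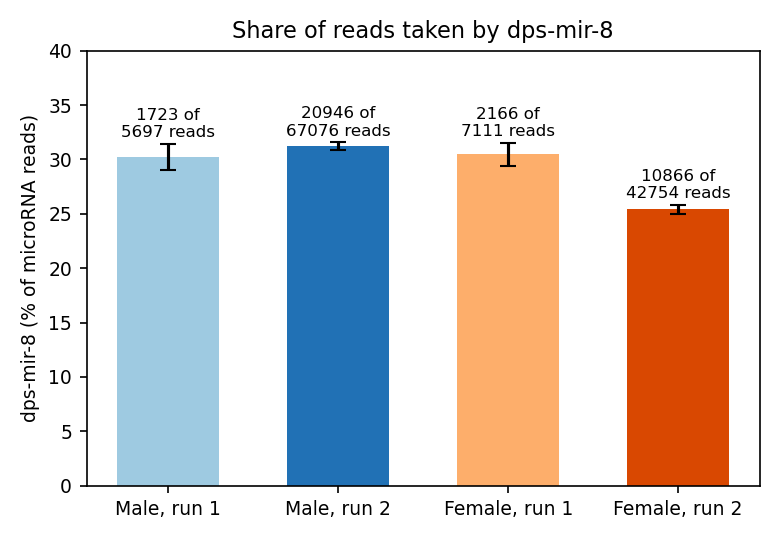
Bars show the percentage of all microRNA reads taken by dps-mir-8 in each of the 4 libraries, with error bars for the exact 95% interval of counting error and the reads printed above. The male libraries and the first female library sit between 30.2% and 31.2%, and the second female library at 25.4%.

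The other abundant microRNAs were each far below dps-mir-8. Together with the 4 next in each library, it made up 78.8% and 64.8% of the reads in males and 75.1% and 59.0% in females. Counted from the top, 3 microRNAs reached 50% of the reads in both male libraries and in the first female library, and 4 were needed in the second female library. The next in mean share was dps-bantam, which promotes growth and blocks cell death in *D. melanogaster*. It had 11.2% and 14.3% of the reads in males, and 13.3% and 14.1% in females, so that its groups overlapped. The share of dps-mir-276a, a microRNA with roles in memory, was 16.1% and 8.06% in males and 17.5% and 8.03% in females. Its shares were high in both libraries of run 1 and low in both of run 2. In the same way dps-mir-277, which in flies controls enzymes of branched-chain amino acid breakdown, had 13.8% and 4.25% in males and 8.28% and 2.21% in females. Its share was lower in both libraries of run 2 than in those of run 1.

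Of the remaining 7 of the 10 microRNAs next in mean share, dps-mir-318 stood apart by sex. It had 2 and 5 reads in males, against 287 and 3102 in females, or 4.04% and 7.26% of the female reads. The others were dps-mir-14, dps-mir-263a, dps-mir-10, dps-mir-281-2, dps-mir-317 and dps-mir-11, whose shares in a library ran from 0.439% to 7.51% and whose adjusted p between the sexes, from the edgeR test described below, ran from 0.334 to 0.990. Among these, dps-mir-14, which limits fat storage and cell death in *D. melanogaster*, had 7.51% and 5.99% in males and 5.58% and 4.15% in females. Its male shares lay above its female shares by a narrow margin, and its adjusted p was 0.446 in that edgeR test. Of the 10, dps-mir-318 alone was called between the sexes (adjusted p = 0.00704 in the same test).

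**Figure D2:**
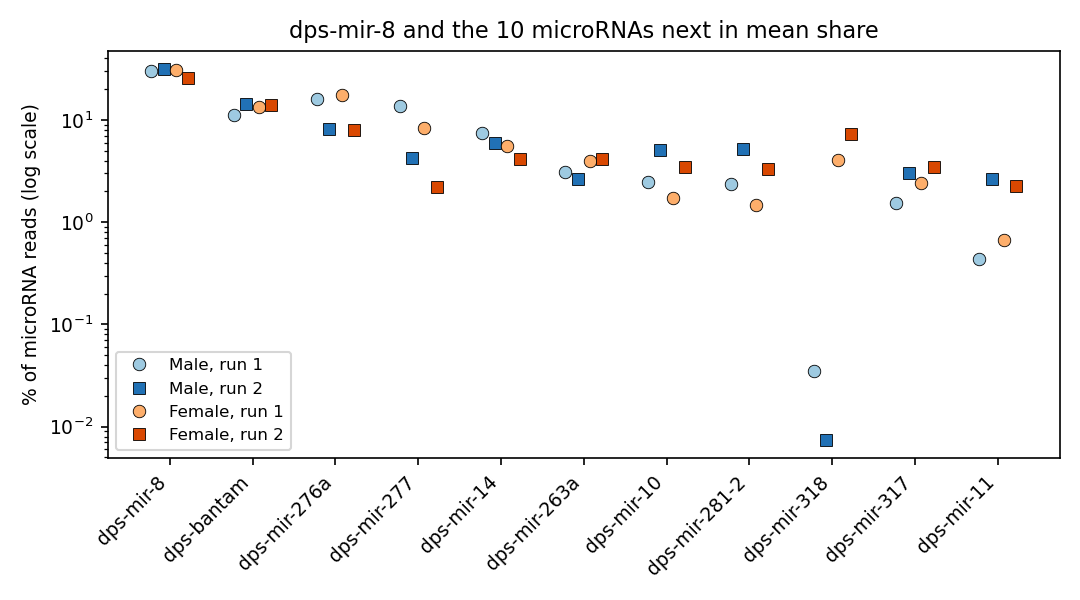
Points show the percentage of microRNA reads on a log scale for dps-mir-8 and the 10 microRNAs next in mean share, in 2 male (blue) and 2 female (orange) libraries, with circles for run 1 and squares for run 2. The points of dps-mir-8 lie between 25.4% and 31.2%, while those of dps-mir-277 spread from 2.21% to 13.8% and those of dps-mir-318 split by sex.

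For the comparison of the sexes, counts were scaled by TMM, which sets the microRNAs of each library against those of a reference library, and fitted by edgeR's quasi-likelihood F-test with terms for run and sex. All 84 microRNAs whose DESeq2 base mean reached 1 entered, and fold changes are males over females. Scaled in this way, dps-mir-8 had 343000 and 302800 CPM (counts scaled to library size) in males and 355700 and 197900 in females. The male mean was 322900 ± 28370 CPM and the female mean 276800 ± 111600 CPM (SD, n = 2 each). Both male values lay between the female values, so the groups overlapped. In RNA from many cells, fewer cells that make dps-mir-8 and less of it per cell cannot be told apart. The log2 fold change was 0.28 (standard error 0.35, 95% interval -0.65 to 1.21, adjusted p = 0.712 from edgeR's quasi-likelihood F-test). With thresholds of 10% for the FDR and 25% for the difference it was not called, and the interval includes differences of more than 25% in either direction. In this test 13.1% of the 84 microRNAs were called, 5 of them higher in males and 6 lower, and DESeq2 called 20.2%.

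The size of this fold change was small among the microRNAs tested. Of the 84, 21 had a smaller absolute log2 fold change than dps-mir-8, and the median absolute value over all 84 was 0.70. Only 26 had at least 10 reads in every library, and fold changes from few reads carry more counting error. The median log2 fold change of the other 83 microRNAs was 0.48, so dps-mir-8 lay 0.20 below it. The sign depended on the scaling: the fold change was -0.061 with DESeq2's size factors (adjusted p = 0.872 from the same test) and ran from -0.33 to 0.34 over the 21 alternatives, with adjusted p between 0.0658 and 0.995. None of these passed both thresholds, and with upper quartile factors, which gave the lowest p, the log2 fold change was 0.26. It was -0.090 without the first male library and -0.14 without the second female library. By share of reads, the male mean was 30.7% ± 0.695 and the female mean 27.9% ± 3.57 (SD, n = 2 each), a difference of 2.80 percentage points (exact permutation test, two-sided, p = 0.667). The test shuffled the 4 libraries without regard to their pairing by run. The smallest two-sided p for 2 samples against 2 is 0.333, so this test could not reach 0.05.

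Within the runs, the sexes differed in run 2 and hardly in run 1. In run 1 the share of dps-mir-8 was 30.2% in the male library and 30.5% in the female library, a log2 ratio of -0.010 (counting interval -0.086 to 0.066). In run 2 it was 31.2% in the male library and 25.4% in the female library, a log2 ratio of 0.30 (0.27 to 0.33). These intervals compare 2 libraries each and not the sexes. In TMM-scaled CPM the log2 ratios were -0.052 for run 1 and 0.61 for run 2. In run 2 the share of the ovary markers was 0.00895% in the male library and 8.12% in the female library. With the ovary markers taken out of the denominator, the share of dps-mir-8 in that run was 31.2% in the male library and 27.7% in the female library, and in run 1 it was 30.2% and 32.0%. With all 11 microRNAs called between the sexes taken out, a setting chosen after seeing the data, the shares were 31.6% in the male and 29.1% in the female library of run 2, and 30.7% and 32.6% in those of run 1. The part of any microRNA in this difference, the ovary markers among them, was not tested.

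The log2 fold change of run 2 over run 1 was -0.51 (standard error 0.35, 95% interval -1.44 to 0.42, adjusted p = 0.440 from edgeR's quasi-likelihood F-test, with the sex in the model). It had 302800 CPM in run 2 and 343000 in run 1 in males, and 197900 and 355700 in females. In this comparison 1.19% of the 84 microRNAs were called, a single one, dps_2613, named after its values were seen, and 20 had an unadjusted p under 0.05. DESeq2 with a local fit called 26.2% of them and limma-voom 13.1%. Of the 84, 18 had a smaller absolute log2 fold change between the runs than dps-mir-8, and the median absolute value was 0.94. Here too, many of the 84 had few reads and so more counting error. The median log2 fold change of the other 83 was 0.17, so dps-mir-8 lay 0.68 below it, against 0.20 below it between the sexes. It was below the median in 17 of 17 alternatives, by 0.41 to 1.49 on the log2 scale. Many of the 17 changed only the scaling, which shifts dps-mir-8 and the other microRNAs together, so they are not separate pieces of support. The 1.49 came from the fit on every microRNA with at least 1 read, where the median of the others was 0.98. Run 2 was the deeper run in both sexes, so a rare microRNA could pass the filter on its reads there alone. Whether this raised the median of the others was not tested. The fold change of dps-mir-8 itself was negative in all 17, from -0.73 to -0.096, with adjusted p between 0.00854 and 0.694. It was called in 5 of them: DESeq2's size factors, upper quartile factors, edgeR's expression filter, DESeq2, and TMM without dps-mir-8 on the second female library. In these 5 fits, in that order, 20, 17, 19, 21 and 20 of the other microRNAs were called as well. The others numbered 54 with the expression filter and 83 elsewhere. As an unscaled share of reads dps-mir-8 was 31.2% in run 2 and 30.2% in run 1 in males, and 25.4% and 30.5% in females, so the sexes moved in opposite directions.

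As a share of reads, dps-mir-8 was the steadiest of the 26 microRNAs with at least 10 reads in every library. The SD of its log2 share over the 4 libraries was 0.14, against a median of 0.69 for the 26 and a highest value of 1.77 for dps-mir-31a. The shares of a library have a fixed sum, and a microRNA with more reads has less counting error, so the SDs of abundant and rare microRNAs are not measured equally well. For dps-bantam the SD was 0.17, the nearest among the 10 next in share.

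The microRNAs at the smallest distance from dps-mir-8 were found by the root mean square difference of the log2 share, with each microRNA centred on its mean over the 4 libraries. Of the other 25 with at least 10 reads in every library, dps-bantam was the closest (0.21), followed by dps-mir-14 (0.22), dps-mir-12 (0.29), dps-mir-9a (0.29) and dps-mir-263a (0.36). The measure is a description over 4 libraries, and neighbours in this order differ by little. It is small for microRNAs whose share varied little, whether or not they were high and low in the same libraries as dps-mir-8. There were 2.71 and 2.18 reads of dps-mir-8 for each read of dps-bantam in males, and 2.29 and 1.80 in females. The lowest ratio was in the second female library, where the centred log2 share was -0.20 for dps-mir-8 and 0.10 for dps-bantam. Like dps-mir-8, dps-mir-14 and dps-mir-12 were lowest there, at -0.45 and -0.57. For each read of dps-mir-12 there were 22.7 and 29.6 reads of dps-mir-8 in males and 32.8 and 39.2 in females. For dps-mir-9a, which in *D. melanogaster* limits the number of sensory organ precursors through senseless, the ratios were 82.0 and 55.3 in males and 94.2 and 68.8 in females. For dps-mir-263a, which protects sensory bristle cells from death in *D. melanogaster*, they were 9.79 and 11.8 in males and 7.76 and 6.08 in females. Its centred log2 share was -0.14 and -0.36 in males and 0.21 and 0.30 in females, highest in the second female library, where dps-mir-8 was lowest. None of the 5 was called between the sexes in edgeR's test, with adjusted p between 0.394 and 0.990. With a minimum of 30 reads in every library, 4 of the 5 were the same, and dps-mir-276a took the place of dps-mir-9a.

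On chromosome 3, the nearest microRNAs in the count tables on each side of dps-mir-8 were dps-mir-2529, at a distance of 278590 bases, and dps_88, at 389706 bases. Both had 0 reads in the 4 libraries. A count of 0 allows up to 3 reads, which is 527 and 44.7 CPM on total reads in males and 422 and 70.2 in females.

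Once dps-mir-8 was set aside, 3974 and 46130 male reads and 4945 and 31888 female reads remained for the other 230 microRNAs. Leaving it out of the total of a library multiplies the level of every other microRNA by a constant. The factor was 1.43 and 1.45 in males and 1.44 and 1.34 in females, which on the log2 scale is 0.52 and 0.54 for the males, against 0.52 and 0.42 for the females. The floor of 3 reads became 755 and 65.0 CPM in males and 607 and 94.1 CPM in females. The differences between the factors set how the ratios of other microRNAs move. The log2 ratio of male to female moved by -0.0045 for each other microRNA in run 1, and by 0.12 in run 2. In the fit on total counts over both runs, leaving out dps-mir-8 raised the log2 fold changes of the other 83 by a median of 0.084 (range 0.0017 to 0.12), and 2 changed sign. It called 16 with dps-mir-8 in the totals and 16 without it, and all 16 were shared.

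The effective number of microRNAs, 1 divided by the sum of squared shares, was 6.35 and 7.19 in males and 6.42 and 9.31 in females. Over the other 230 alone it was 7.38 and 11.4 in males and 7.67 and 13.0 in females. Of the sum of squared shares, dps-mir-8 alone made up 58.1% and 70.1% in males and 59.5% and 60.1% in females.

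With TMM the direction of the shift depended on the library that served as its reference. By default this was the first female library, with and without dps-mir-8, and there leaving dps-mir-8 out of the totals and of TMM lowered the log2 fold changes of the other 83 by a median of 0.12, as the shift from the fit that holds it ran from -0.15 to -0.044. Their median log2 fold change was 0.36 without it, against 0.48 with it, and 6 changed sign. The TMM factors were 1.01 and 1.04 in males and 0.854 and 1.12 in females without dps-mir-8, against 0.882 and 1.03 in males and 0.856 and 1.28 in females with it. Thus the factors of the second male and first female library hardly moved, while those of the first male and second female library did. With the other references, tried after seeing the data, leaving out dps-mir-8 raised the log2 fold changes of the other 83. The median shift was 0.20 with the first male library as reference (range -0.057 to 0.36), 0.051 with the second male library (-0.0013 to 0.069) and 0.16 with the second female library (0.028 to 0.26). The log2 fold change of dps-mir-8 itself was 0.13 (adjusted p = 0.921 from edgeR's quasi-likelihood F-test) when it was left out of the scaling with the default reference.

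Without it in the scaling, with the default reference, 6 microRNAs were called, against 11 with it, and the 6 were all among the 11. A fall of this size was not seen with the other references, where 11, 15 and 13 were called without dps-mir-8 (first male, second male and second female library), against 12, 11 and 8 with it. The 6 were 7.14% of the 84 tested, with 3 higher in males and 3 lower. The 5 lost were dps-mir-133, dps-mir-2510, dps-mir-306, dps-mir-92b and dps-mir-9b, with adjusted p between 0.139 and 0.154 in edgeR's test. Their fold changes moved little: dps-mir-92b had a log2 fold change of -3.71 without dps-mir-8 in the scaling, against -3.59 with it, and dps-mir-9b had -2.62 against -2.49. The common dispersion was 0.0943 without it, against 0.0865 with it. The prior degrees of freedom, the weight edgeR gives to the variance shared across microRNAs, were 2.25 without it, against 3.61 with it. The part of either in the fall was not tested. The reads of dps-mir-92b were 8 and 84 in males, against 44 and 1440 in females, and those of dps-mir-9b were 2 and 73 in males, against 30 and 248 in females. For the muscle microRNA dps-mir-133 the reads were 6 and 181 in males, against 3 and 50 in females, for dps-mir-2510 they were 1 and 29 in males, against 0 in both female libraries, and for dps-mir-306 they were 15 and 52 in males, against 48 and 124 in females. Counting could have divided reads between dps-mir-92b or dps-mir-9b and their paralogs. The same holds for other named microRNAs with paralogs, such as dps-mir-9a, dps-mir-9c and dps-mir-281-2. In fits on sex only, 2 were called without the first male library, 6 without the second male library, 6 without the first female library and 3 without the second female library.

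A fit in which dps-mir-8 was the only reference gave more calls than the default TMM fit, though fewer than the 16 of the fit on total counts. Each count was then set against the reads of dps-mir-8 in the same library, and 15 of the other 83 microRNAs were called (18.1%), 8 higher in males and 7 lower. Of these, 10 were among the 11 of the fit on all microRNAs, and dps-mir-133 was lost (adjusted p = 0.189 from edgeR's quasi-likelihood F-test). Gained were dps-mir-277, dps-mir-304, dps-mir-2520, dps_18 and dps-mir-9c. All of these were also called in the fits on total counts, with dps-mir-8 in the totals and without it. Their calls were therefore not particular to dps-mir-8 as the reference. The fold changes moved down by a median of 0.43, as the shift ran from -0.61 to 0.0027, and their median was 0.095. Against dps-mir-8, the microRNA dps-mir-277 had a log2 fold change of 0.70 (adjusted p = 0.00237 from edgeR's test). In the fit on all microRNAs it was larger, 0.98, with an adjusted p of 0.221. For dps-mir-9c the values were -2.29 (adjusted p = 0.0470) and -1.985 (adjusted p = 0.215). The prior degrees of freedom were 13.0 in the fit against dps-mir-8 and 3.61 in the fit on all microRNAs. The common dispersion was 0.0967 and 0.0865. Their part in the gained calls was not tested. In reads, dps-mir-277 had 785 and 2853 in males against 589 and 945 in females, and dps-mir-9c had 18 and 156 in males against 32 and 1020 in females. Over both runs the groups of dps-mir-277 overlapped, while within each run its share of the reads was higher in the male library, with 13.8% in the male and 8.28% in the female library of run 1 and 4.25% and 2.21% in those of run 2. The reads of the other 3 were few: dps-mir-304 had 0 and 32 in males against 0 and 4 in females, dps-mir-2520 had 1 and 17 against 0 in both female libraries, and dps_18 had 1 and 12 against 0 in both. A call against dps-mir-8 is a difference of the ratio to it, and takes its own level as equal in the sexes. The interval of its own log2 fold change was -0.65 to 1.21.

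**Figure D3:**
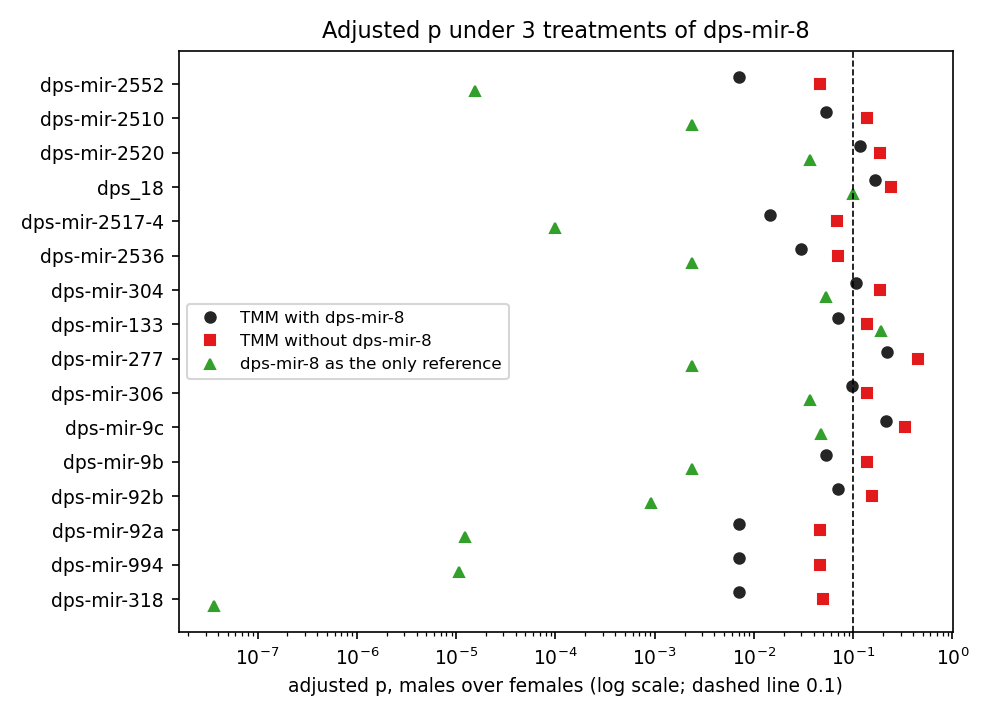
Points show the adjusted p of edgeR's test for males over females, on a log scale, for the 16 microRNAs called in at least 1 of 3 fits: TMM with dps-mir-8 (circles), TMM without it (squares) and dps-mir-8 as the only reference (triangles). All squares lie to the right of the circles, 6 of them left of the dashed line at 0.1, and all triangles but that of dps-mir-133 lie left of it.

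The choice of the reference library, with dps-mir-8 kept in TMM, moved the median fold change further than leaving out dps-mir-8 did under the default reference. With the first male, second male or second female library as reference, the median log2 fold change of the other 83 was 0.16, 0.062 or -0.10, and 12, 11 or 8 of them were called. The log2 fold change of dps-mir-8 was 0.027, -0.074 or -0.33 in these fits (adjusted p = 0.761, 0.631 and 0.749 from edgeR's test). The factor of the second female library was 1.28 with the default reference and between 0.932 and 1.04 with the others. With the second male library as reference, the 4 factors with and without dps-mir-8 differed by at most 0.0182, against 0.173, 0.166 and 0.188 with the first male, first female and second female library. The distance of dps-mir-8 from the median of the other microRNAs varied less than its own fold change in the 17 alternatives that kept all 4 libraries, and more when a library was left out. In the 17 it ran from -0.33 to 0.011 on the log2 scale, and it was below the median in 16, limma-voom being the exception. Many of the 17 changed only the scaling, which shifts dps-mir-8 and the other microRNAs together. The steadier distance follows largely from that, and the 16 are not separate pieces of support. Without the second male library it was 0.35, without the first female library 0.18, without the first male library -0.26 and without the second female library -0.99.

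**Figure D4:**
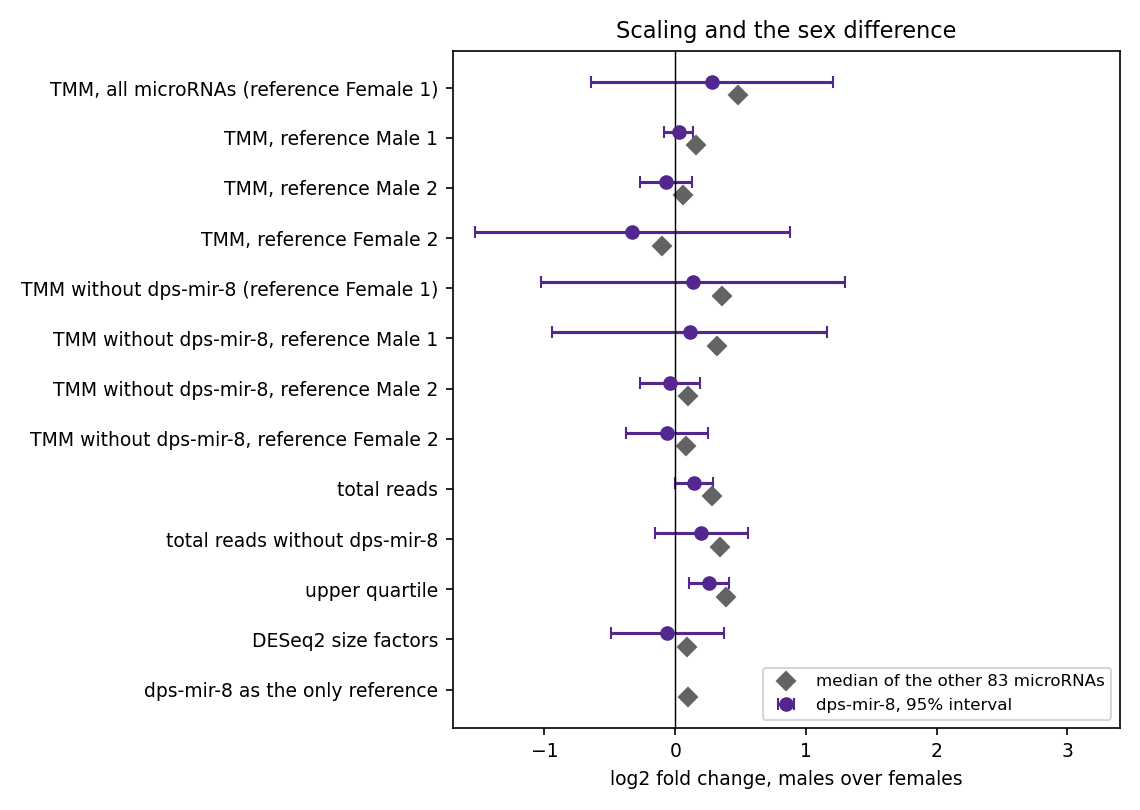
Log2 fold changes of males over females are shown for dps-mir-8 (circles, with the 95% interval from edgeR's test) and for the median of the other 83 microRNAs (diamonds), under 13 scalings of the same counts. The median runs from -0.10 with the second female library as the TMM reference to 0.48 with the default reference, and the circle of dps-mir-8 lies left of the median in each of the 12 scalings that give it a value. A change of scaling shifts the circle and the diamond together, so the 12 are not separate observations.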

How the data were processed

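The authors trimmed adapters with Cutadapt, mapped reads with HISAT2 and counted them with featureCounts on annotated precursors, leaving out microRNAs identical at several places. The deposited values are raw read counts for 231 microRNAs, without normalization. Positions were taken from the study's annotation list (224 of 231 matched) and genes from the RefSeq table of UCI_Dpse_MV25. Sequences were not used here.

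Counts were tested with edgeR 4.0.16 in R 4.3.3, with run and sex in the model as in the paper. The pairing by run comes from the paper's methods. Across 84 microRNAs, the run changes in males and females had a Pearson r of 0.567, and 48 had the same sign in both. Run and depth cannot be told apart here, since both libraries of run 1 were the shallower ones. A call required an FDR below 0.1 with a 1.25-fold difference or more. Standard errors were derived from edgeR's F statistic. Alternatives used limma 3.58.1 (voom) and DESeq2 1.42.0. Leaving out a library required a fit on sex only, which assumes that the lone sample varies like the others. The male libraries held 5697 and 67076 reads in all, the female ones 7111 and 42754.

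The member, lists and tests were chosen with earlier results of these data known. Named were dps-mir-8, the 10 microRNAs next in mean share, the 5 closest to it in log2 share, its neighbours, the tissue markers, and each microRNA whose call changed with its place in the scaling.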

Additional observations from a re-analysis of the deposited data

Results flagged for a closer look

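The share of dps-mir-8 moved in opposite directions between the runs in the sexes, and this difference was not tested, since each sex has 1 library in a run. Run 2 minus run 1 was 0.983 percentage points in males and -5.05 in females. Males minus females was -0.216 percentage points in run 1 and 5.81 in run 2, and in TMM-scaled CPM the log2 ratio of male to female was -0.052 for run 1 and 0.61 for run 2. The second female library had the lowest share, 25.4%.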

How the results depend on the processing

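The log2 fold change of dps-mir-8 between the sexes kept its sign and stayed uncalled in 12 of 21 alternatives, among them the fit with no replicate block (0.22). It changed sign, uncalled, with DESeq2's size factors (-0.061), edgeR's expression filter (-0.12), DESeq2 (-0.060), and the second male or second female library as TMM reference with dps-mir-8 (-0.074 and -0.33) and without it (-0.040 and -0.064). Leaving out 1 library gave values from -0.14 to 0.31. Between the runs it kept its sign in 17 of 17 and became a call with DESeq2's size factors (-0.73), upper quartile factors (-0.61), edgeR's expression filter (-0.37), DESeq2 (-0.73) and TMM without dps-mir-8 on the second female library (-0.55). In those fits 17 to 21 of the other microRNAs were called between the runs as well. The number of other microRNAs called between the sexes, 11, stayed within 1.5 times in 14 of 22 alternatives (9 with no replicate block). It was 6 with dps-mir-8 left out of the totals and of TMM (11 to 15 with the other reference libraries), 5 with a base mean of at least 10, 17 with DESeq2, 6 with limma-voom, and 2 to 6 without 1 library. The median log2 fold change of the others, 0.48, was 0.089 with DESeq2's size factors, 0.012 with edgeR's expression filter, 0.085 with DESeq2, 0.095 with dps-mir-8 as the only reference, 0.16, 0.062 and -0.10 with the first male, second male and second female TMM reference, 0.0998 and 0.079 with the last 2 when dps-mir-8 was left out, and -0.11 to 0.85 without 1 library. With no replicate block it was 0.49. The cause of these changes was not tested, beyond the smaller number of libraries or microRNAs in some. The share of dps-mir-8 moved by more than the SD of the 2 libraries of its sex (0.695 in males, 3.57 in females) once. That was to 29.1% in the second female library without the microRNAs called between the sexes. The female SD rests on the low share of that same library, so it is a lenient limit. In the same setting the first female library moved from 30.5% to 32.6%. The depth of run 1, 5697 reads in the male and 7111 in the female library, limits the rarer microRNAs most, since 3 reads there are 527 and 422 CPM on total reads.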
